A study of Mus musculus with 14 samples.

Results

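Genes for the oxidation and activation of fatty acids were followed through muscle differentiation of mouse C2C12 cells. The set held 34 genes of the 49671 in the count table, taken by gene symbol from a list of known enzymes, carriers and regulators of these steps. Of these, 32 passed the filter on low counts and were tested among 15973 genes. Ppara and Ehhadh, with 0 to 6 counts in any library, did not pass.

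C2C12 is an immortalized line of mouse skeletal myoblasts that forms multinucleated myotubes when serum is withdrawn. RNA was sequenced in 14 libraries, 2 for each of 7 groups. In DM3 the cells received 2% horse serum (HS) plus an adipogenic cocktail of insulin (1 µg/ml), IBMX (0.5 mM), dexamethasone (0.5 µM) and rosiglitazone (2 µM). DM2 contained the same 4 agents at the same doses in 10% fetal calf serum (FCS), and DM1 contained 2% HS alone. Media were changed on alternate days, and RNA was taken after 2 and 7 days. Day 0 cells were taken from growth medium with 20% FCS and had none of the 4 agents. IBMX blocks the breakdown of cyclic AMP, dexamethasone is a synthetic glucocorticoid, and rosiglitazone activates the nuclear receptor PPAR-gamma. The labels number the replicates without saying that they were separate cultures, so each p-value measures the spread between libraries, which may be technical. All groups come from a single cell line in culture.

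Fatty acids are bound by carrier proteins in the cytosol and activated to acyl-CoA by synthetases. The carnitine shuttle carries long chains into mitochondria, where a spiral of dehydrogenases, hydratases and thiolases removes acetyl-CoA units and passes electrons to the respiratory chain. In skeletal muscle this pathway is a main source of energy at rest and during prolonged exercise, and PPAR receptors are known to drive many of its genes.

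Libraries held 21907617 to 29784885 expected counts, and 17779 to 21166 genes had at least 1 count. DM3 day 2 replicate 2 stood apart, with 0.584% of counts in processed pseudogenes against up to 3.86% in other libraries, and with 4.18% of values not whole. Day 0 replicate 1 and DM1 day 2 replicate 1 also had low pseudogene shares, of 1.28% and 1.29%. The 5 measured markers of differentiated muscle (Myog, Myh3, Acta1, Ckm and Tnnt3) summed to 18506 to 19477 CPM (counts scaled to a total of 1000000) in DM3 at day 7. The same sum was 442 to 447 CPM in DM2 and 666 to 898 CPM in DM1 at day 7, and 6.97 to 7.69 CPM at day 0. The 9 adipocyte markers summed to 18.4 to 33.5 CPM over all libraries, of which Pparg made up 9.67 to 24.3 CPM. Fabp4, Plin1, Cidec, Adipoq and Cfd were highest in DM2 at day 7. There Fabp4 averaged 6.74 CPM against 0.415 CPM at day 0, Plin1 0.917 against 0.0345 CPM, and Cidec 0.538 CPM against 0. Lipe and Pparg had their lowest means in that group, at 3.12 and 11.0 CPM, against 3.33 and 23.2 CPM at day 0. Retn had its highest mean, 0.119 CPM, in DM2 at day 2. Adipoq reached at most 0.339 CPM, also in DM2 at day 7, and Lep was at 0 in every library. The brown fat uncoupler Ucp1 reached at most 0.0375 CPM. The 5 brown fat markers summed to 36.3 to 36.9 CPM in DM3 and 39.3 to 44.1 CPM in DM2 at day 7, against 12.3 to 12.5 CPM at day 0. Dio2 and Ppargc1a made up most of these sums. At day 7 Dio2 averaged 31.9 CPM in DM3 and 16.4 CPM in DM2, against 10.8 CPM at day 0. Ppargc1a averaged 4.62 and 24.6 CPM, against 1.47 CPM. Elovl3 averaged 0.0622 CPM in DM3 and 0.652 CPM in DM2, against 0.155 CPM, and Cidea reached at most 0.0376 CPM. Myoblast markers summed to 2765 to 2802 CPM in DM3 at day 7 and to 884 to 2053 CPM elsewhere. Most of the sum in DM3 at day 7 was Des, with a mean of 2047 CPM against 863 CPM at day 0. Myod1 (68.8 against 137 CPM) and Vcam1 (22.0 against 82.5 CPM) were below day 0 there, while the means of Myf5, Cdh15 and Pax7 were above it. In these bulk samples, a change in the share of cells of a type and a change in RNA per cell cannot be told apart. The part of these marker levels in the results below was not tested.

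Ucp3, Fabp3 and Acsl6 had the largest rises of the set over day 0 in DM3 at day 7. Ucp3, a mitochondrial carrier found mainly in skeletal muscle and brown fat, had 0.705 and 0.644 CPM in DM3, 0 and 0.0763 CPM in DM2 and 0 and 0.0375 CPM in DM1 at day 2. By day 7 Ucp3 had 6.09 and 5.42 CPM in DM3, 0.0753 and 0.0778 CPM in DM2 and 0.713 and 0.209 CPM in DM1, against 0 and 0.0341 CPM at day 0. Both DM3 libraries of day 7 lay above all 12 others. Their 276 counts against 1 count at day 0 gave a ratio of 334, with an exact 95% counting interval of 59.4 to 13221, and edgeR's quasi-likelihood test gave an adjusted p of 5.52e-06. Without day 0 replicate 1 the ratio was 169, and without replicate 2 it was at least 54.9-fold, set against a floor of 3 counts per library. Already at day 2, the 34 counts in DM3 against 1 at day 0 gave a ratio of 39.0 (6.53 to 1583), or 19.7 without day 0 replicate 1 and at least 6.41 without replicate 2. In DM1 at day 7 the ratio over day 0 was 27.9 (4.56 to 1145), or 14.1 and at least 4.59 without those libraries in turn. Intervals and floors cover counting error only, since amplified reads without molecular tags are not independent molecules.

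Fabp3, the fatty acid binding protein of heart and oxidative muscle, stayed under 1 CPM at day 2. It had 0.516 and 0.501 CPM in DM3, 0.200 and 0.420 CPM in DM2 and 0.378 and 0.525 CPM in DM1. By day 7 Fabp3 had 13.6 and 11.9 CPM in DM3, 1.79 and 1.83 CPM in DM2 and 0 and 0.668 CPM in DM1, against 0.537 and 0.216 CPM at day 0. The DM3 libraries of day 7 again exceeded every other library. The rise over day 0 was 34.6-fold in DM3 (log2 5.11 ± 0.91 SE, adjusted p 0.000912), and 60.9-fold without day 0 replicate 1. Replicate 2 was the lower day 0 library, so the fold is smaller without it. The 4.95-fold value in DM2 at day 7 (adjusted p 0.0489) was no longer called without any single library of the pair of groups (adjusted p up to 0.209). It was 8.71-fold without day 0 replicate 1 and 3.45-fold without replicate 2. Zcchc17 lies on the opposite strand over Fabp3, at a mean of 24.2 CPM, and the strand setting of the counting is not given in the sources used here.

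Acsl6, an acyl-CoA synthetase known for its role in brain lipids, had 5.11 and 3.33 CPM in DM3, 0.922 and 0.344 CPM in DM2 and 6.80 and 6.79 CPM in DM1 at day 2. By day 7 Acsl6 had 42.1 and 37.1 CPM in DM3, 2.90 and 2.72 CPM in DM2 and 7.23 and 4.88 CPM in DM1, against 2.58 and 4.05 CPM at day 0. DM3 at day 7 and DM2 at day 2 held its highest and lowest libraries. It was 11.9-fold over day 0 in DM3 at day 7 (adjusted p 1.11e-05). In DM2 at day 2 it was 5.25-fold lower (adjusted p 0.000793), or 9.85-fold lower without DM2 day 2 replicate 1. Replicate 2 was the lower DM2 library of that day, so the fall is smaller without it.

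**Figure D1:**
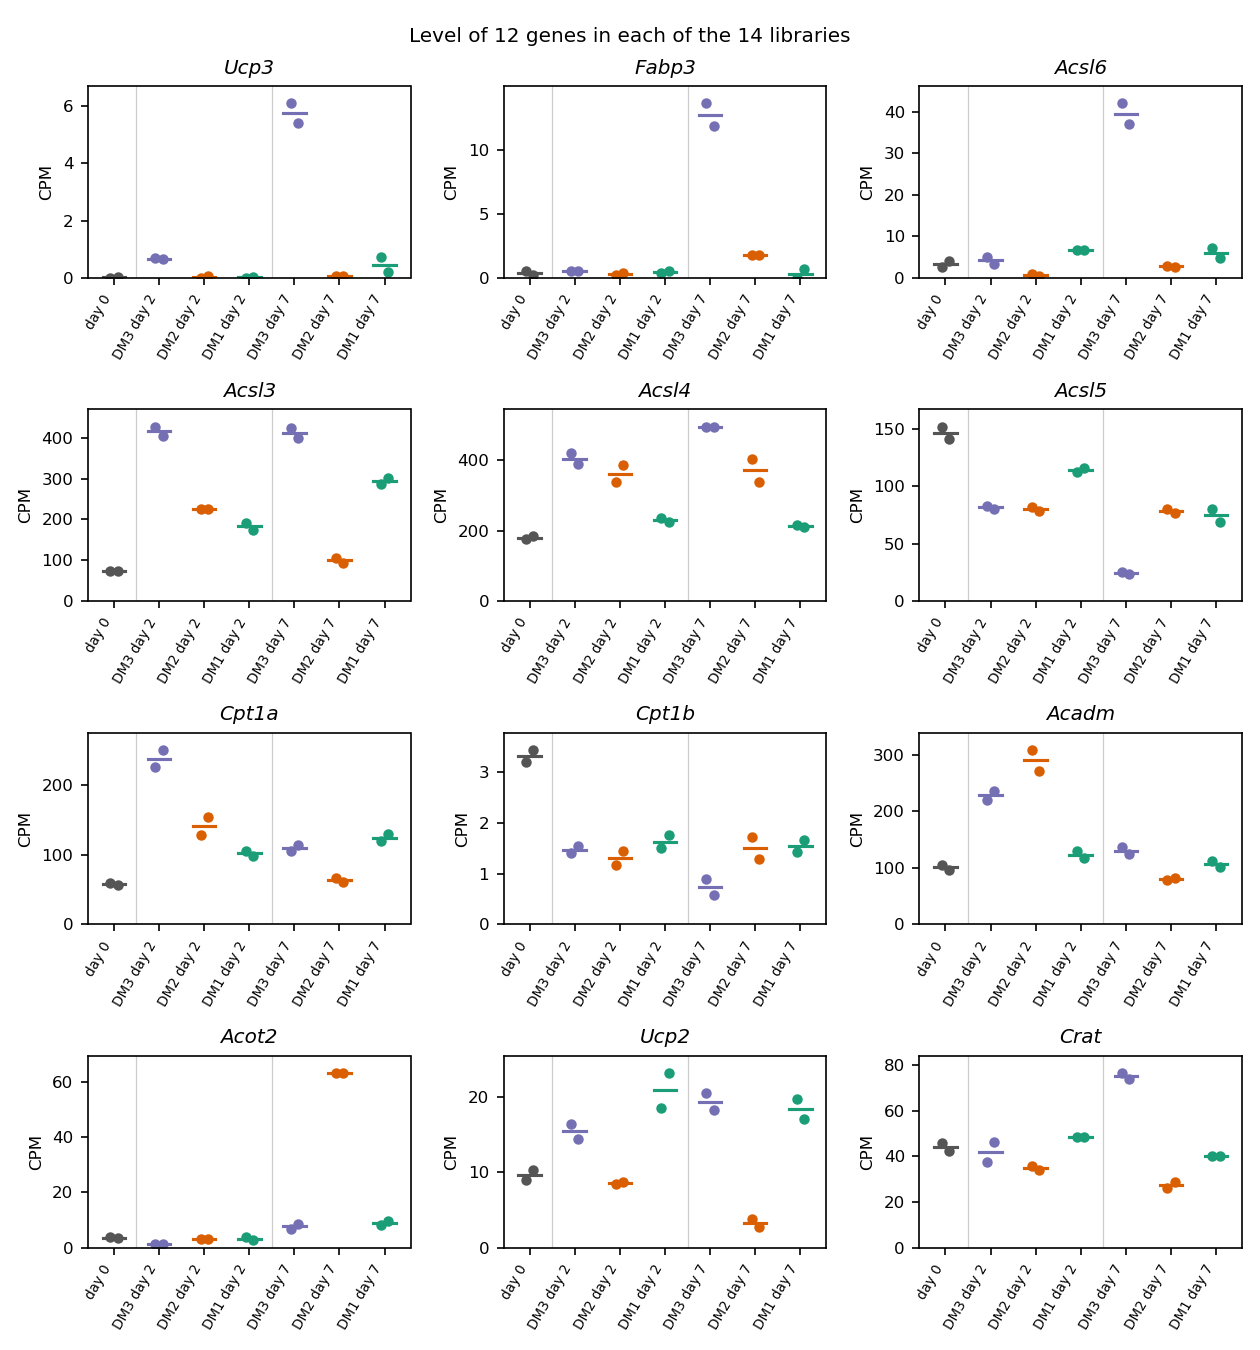
Level of 12 genes in CPM (linear axes from 0) in each of the 14 libraries, with points for libraries and bars for the mean of 2; each gene has its own axis. Ucp3, Fabp3 and Acsl6 peak in DM3 at day 7, Acot2 in DM2 at day 7, Cpt1a in DM3 at day 2, and Cpt1b and Acsl5 at day 0.

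The promoter windows of these 3 genes, which peaked in DM3 at day 7, are shown with that of Cpt1a, which peaked in DM3 at day 2. Each runs from 250 bases before the start site to 50 bases after it, on RefSeq's GRCm38.p6, all on the plus strand, written 5′ to 3′. Capitals mark matches, on either strand, to the nuclear receptor half-site AGGTCA, the ERR site TCAAGGTCA that contains it, the muscle E-box CAGCTG, the PPAR repeat (a pair of AGGTCA half-sites with 1 base between them), the MEF2 site (CTA, any 4 bases, then TAG), the cyclic AMP element TGACGTCA and the ATF4 element TGATGCAA. The Ucp3 window is chr7:100472741-100473040, that of Fabp3 chr4:130308488-130308787, that of Cpt1a chr19:3323051-3323350, and that of Acsl6, the first of 3 start sites, chr11:54303574-54303873.
Ucp3: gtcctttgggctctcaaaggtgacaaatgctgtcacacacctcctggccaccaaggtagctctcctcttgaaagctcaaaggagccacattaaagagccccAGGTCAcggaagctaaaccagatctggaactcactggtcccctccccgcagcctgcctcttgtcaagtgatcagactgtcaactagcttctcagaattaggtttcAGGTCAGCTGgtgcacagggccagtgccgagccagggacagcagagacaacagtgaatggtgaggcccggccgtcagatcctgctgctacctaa
Acsl6: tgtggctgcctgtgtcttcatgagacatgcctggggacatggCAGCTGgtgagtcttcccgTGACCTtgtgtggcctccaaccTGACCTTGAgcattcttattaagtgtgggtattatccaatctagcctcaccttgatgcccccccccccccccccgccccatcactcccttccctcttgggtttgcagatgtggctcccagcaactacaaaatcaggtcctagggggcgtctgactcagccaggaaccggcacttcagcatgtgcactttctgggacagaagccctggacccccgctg
Fabp3: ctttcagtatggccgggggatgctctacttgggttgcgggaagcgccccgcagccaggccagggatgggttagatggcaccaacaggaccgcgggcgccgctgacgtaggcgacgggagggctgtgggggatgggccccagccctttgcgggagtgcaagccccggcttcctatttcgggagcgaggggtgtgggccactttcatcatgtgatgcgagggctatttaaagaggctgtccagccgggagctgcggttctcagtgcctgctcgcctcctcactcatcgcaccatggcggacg
Cpt1a: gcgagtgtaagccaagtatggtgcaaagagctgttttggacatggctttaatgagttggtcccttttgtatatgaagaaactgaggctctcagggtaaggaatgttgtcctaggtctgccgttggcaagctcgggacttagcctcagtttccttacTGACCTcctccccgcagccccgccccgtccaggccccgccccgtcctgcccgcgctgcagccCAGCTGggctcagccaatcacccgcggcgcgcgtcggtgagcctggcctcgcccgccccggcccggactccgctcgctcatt

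In Ucp3 the half-site occurred at -149 and -44 from the start, and the copy at -44 overlapped an E-box at -40. The Acsl6 window held the ERR site at -167, a further half-site at -189 and an E-box at -208. The windows at its other start sites held none of these motifs, and which start was in use was not tested. Cpt1a held a half-site at -94 and an E-box at -32, and Fabp3 held none of these motifs. RefSeq windows matched 30 of the 34 genes, in 33 windows. The half-site occurred in 18.2% of these windows and in 16.3% of all 32851 windows. The E-box occurred in 30.3% and 16.3%, the ERR site in 3.03% and 0.423%, and the ATF4 element (in Echs1) in 3.03% and 0.895%. The GC box GGGCGG, which is not capitalised, occurred in 72.7% and 35.7%. The PPAR repeat, the MEF2 site and the cyclic AMP element were in 0 of the 33 windows, and in 0.0396%, 3.69% and 1.79% of all windows. These matches are descriptions of letters in a window.

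Among the synthetases that activate long-chain fatty acids, Acsl3 and Acsl4 rose over day 0 in all 6 groups and Acsl5 fell in all 6. Acsl3, found on lipid droplets and endoplasmic reticulum, had 427 and 405 CPM in DM3, 224 and 225 CPM in DM2 and 192 and 174 CPM in DM1 at day 2. By day 7 Acsl3 had 425 and 399.7 CPM in DM3, 106 and 94.3 CPM in DM2 and 287 and 301 CPM in DM1, against 74.4 and 73.5 CPM at day 0. DM3 was the highest medium on both days, and no group overlapped day 0. Acsl3 was 5.57-fold over day 0 in DM3 at day 7 (log2 2.48 ± 0.09 SE, adjusted p 3.23e-10). Utp14b lies within Acsl3 on the same strand, at 10.9 to 32.2 CPM, so part of its reads can be shared.

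Acsl4, which prefers arachidonic acid, had 420.0 and 389 CPM in DM3, 339.7 and 386 CPM in DM2 and 236 and 226 CPM in DM1 at day 2. By day 7 Acsl4 had 496 and 495 CPM in DM3, 403 and 339.7 CPM in DM2 and 217 and 212 CPM in DM1, against 177 and 184 CPM at day 0. All cocktail libraries lay above all DM1 and day 0 libraries. Acsl4 was 2.74-fold over day 0 in DM3 at day 7 (adjusted p 7.36e-08). Its 1.19-fold rise in DM1 at day 7 was not called without any one of the 4 libraries (adjusted p up to 0.181).

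Acsl5, a mitochondrial and reticular synthetase prominent in intestine, had 82.9 and 80.2 CPM in DM3, 81.8 and 78.2 CPM in DM2 and 113 and 116 CPM in DM1 at day 2. By day 7 Acsl5 had 25.0 and 23.5 CPM in DM3, 80.1 and 76.5 CPM in DM2 and 80.5 and 68.9 CPM in DM1, against 152 and 141 CPM at day 0. Day 0 lay above and DM3 at day 7 below all other libraries. The fall in DM3 at day 7 was 6.04-fold (log2 -2.59 ± 0.09 SE, adjusted p 2.68e-10). Zdhhc6, on the opposite strand over Acsl5, had a mean of 43.5 CPM in DM3 at day 7 and 67.0 CPM at day 0. Acsl1, the main synthetase of adult muscle and fat, had 33.4 and 34.5 CPM in DM3, 34.8 and 31.1 CPM in DM2 and 22.5 and 23.4 CPM in DM1 at day 7, against 17.2 and 17.1 CPM at day 0. Its folds over day 0 at day 7 were 1.98 in DM3, 1.92 in DM2 and 1.34 in DM1, all called.

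Per kilobase of exon, the summed synthetase level changed in makeup. Acsl5 held 2.51% ± 0.0481 of it in DM3 at day 7, against 36.5% ± 1.52 at day 0 (SD, n = 2 each). Acsl3 held 47.6% in DM3, 20.6% in DM2 and 53.8% in DM1 at day 7, against 20.6% at day 0. Acsl4 held 46.2% in DM3, 61.7% in DM2 and 31.7% in DM1 at day 7, against 40.5% at day 0. Acsl6 reached its highest share, 2.01% ± 0.132, in DM3 at day 7, so its 11.9-fold rise began from a small base of 0.406% at day 0. Acsl1 stayed between 1.14% and 2.83% in all groups. The size of each share depends on the length used, which joins all annotated exons, 10483 bp for Acsl1 and 4357 bp for Acsl3.

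**Figure D2:**
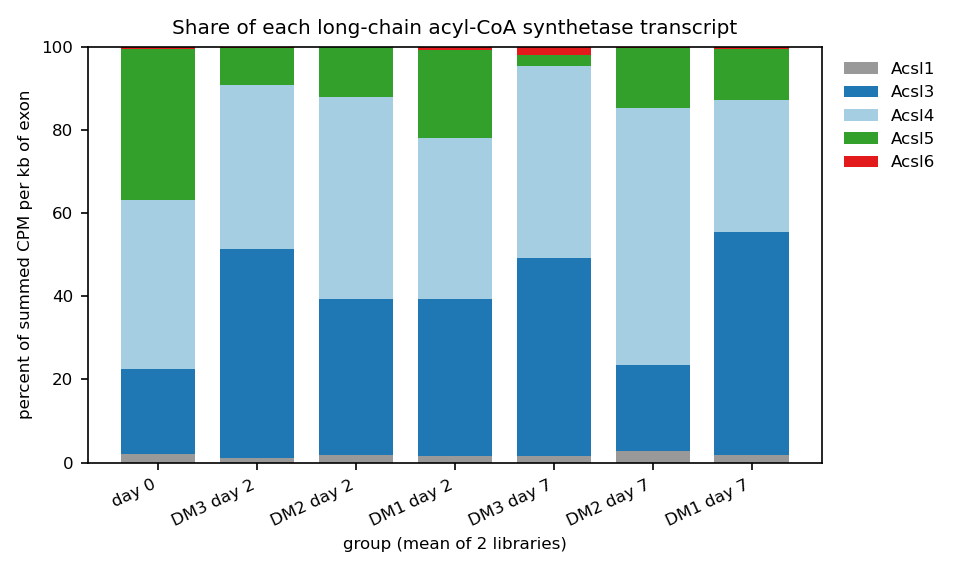
Share of each long-chain acyl-CoA synthetase in the summed CPM per kilobase of exon, in percent, as the mean of 2 libraries per group. Acsl5 takes 2.51% in DM3 at day 7, against 36.5% at day 0, and in DM3 at day 7 Acsl3 and Acsl4 together make up most of the bar.

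In the carnitine shuttle, Cpt1b fell against day 0 in all 6 groups, and Cpt1a rose in all but DM2 at day 7. Cpt1a, the isoform typical of liver and the rate-limiting entry step there, had 226 and 251 CPM in DM3, 128 and 154 CPM in DM2 and 105 and 99.0 CPM in DM1 at day 2. By day 7 Cpt1a had 106 and 115 CPM in DM3, 66.8 and 60.7 CPM in DM2 and 121 and 129 CPM in DM1, against 59.1 and 56.3 CPM at day 0. No differentiated library overlapped day 0, and DM3 at day 2 was highest. Cpt1a rose 4.13-fold in DM3 at day 2 (log2 2.05 ± 0.10 SE, adjusted p 2.19e-08) and 1.91-fold in DM3 at day 7. It was not called in DM2 at day 7.

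Cpt1b, the isoform of adult muscle, had 1.41 and 1.54 CPM in DM3, 1.16 and 1.45 CPM in DM2 and 1.504 and 1.76 CPM in DM1 at day 2. By day 7 Cpt1b had 0.888 and 0.575 CPM in DM3, 1.73 and 1.28 CPM in DM2 and 1.42 and 1.67 CPM in DM1, against 3.20 and 3.44 CPM at day 0. Both day 0 libraries exceeded all others, and both DM3 libraries of day 7 lay below all others. The fall was 4.53-fold in DM3 at day 7 (log2 -2.18 ± 0.29 SE, adjusted p 3.9e-05). Cpt1b was thus lowest in the libraries with the highest muscle markers. Cpt1b shares its place with a readthrough gene of the annotation, Gm44502, that the count table does not list. Chkb, the neighbour in that readthrough, ranged from 24.8 to 39.0 CPM. Per kilobase, Cpt1b made up 1.49% ± 0.520 of the pair in DM3 at day 7, against 11.5% ± 0.884 at day 0 (SD, n = 2 each).

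Slc25a20, the translocase of acylcarnitines across the inner membrane, had 19.3 and 18.4 CPM in DM3, 8.92 and 9.07 CPM in DM2 and 10.9 and 8.18 CPM in DM1 at day 7, against 7.78 and 9.13 CPM at day 0. It was 2.23-fold over day 0 in DM3 at day 7 and was not called in the other media of that day. Crat, which exchanges acetyl groups between CoA and carnitine, had 76.5 and 73.8 CPM in DM3, 26.0 and 28.9 CPM in DM2 and 40.3 and 40.1 CPM in DM1 at day 7, against 45.8 and 42.3 CPM at day 0. Crat was highest in DM3 and lowest in DM2 at day 7, with no overlap of either with another group. Mlycd removes malonyl-CoA, the inhibitor of the entry step. Mlycd had 17.97 and 16.2 CPM in DM3, 11.4 and 14.1 CPM in DM2 and 12.4 and 10.1 CPM in DM1 at day 7, against 7.61 and 6.47 CPM at day 0. Cpt2, which reforms acyl-CoA inside mitochondria, ranged between group means of 26.6 CPM in DM2 at day 7 and 50.4 CPM in DM3 at day 2.

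In the oxidation spiral, changes were smaller: the group means of 9 enzymes spanned from 1.35-fold (Hadha) to 3.62-fold (Acadm). Acadm, the medium-chain dehydrogenase and a long-known PPAR target, had 221 and 237 CPM in DM3, 309 and 272 CPM in DM2 and 129 and 117 CPM in DM1 at day 2. By day 7 Acadm had 136 and 124 CPM in DM3, 78.8 and 81.5 CPM in DM2 and 112 and 101 CPM in DM1, against 105 and 97.2 CPM at day 0. DM2 thus held both its highest and its lowest libraries, at day 2 and day 7. Acadm was 2.87-fold over day 0 in DM2 at day 2 (log2 1.52 ± 0.10 SE, adjusted p 2e-07). It was 1.29-fold over day 0 in DM3 at day 7, a call lost without DM3 day 7 replicate 1 (adjusted p 0.0515).

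The very-long-chain dehydrogenase Acadvl rose to 192 and 181 CPM in DM3 at day 7, against 113 and 107 CPM at day 0. The long-chain dehydrogenase Acadl had its highest mean, 149 CPM, in DM3 at day 2 and its lowest, 95.0 CPM, in DM2 at day 7. Acads, for short chains, was highest in DM3 at day 7 (76.0 CPM) and lowest in DM2 at day 7 (46.4 CPM). All 3 rose over day 0 in DM3 at both days, although the day 2 call of Acads was lost without day 0 replicate 2 (adjusted p 0.0575).

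The trifunctional protein carries 3 of the steps for long chains, and its subunit genes Hadha and Hadhb lie head to head on chromosome 5. Hadhb had 108 and 91.8 CPM in DM3, 69.6 and 68.6 CPM in DM2 and 54.2 and 57.5 CPM in DM1 at day 7, against 76.0 and 65.9 CPM at day 0. Hadha had 164 and 159.6 CPM in DM3, 150.5 and 152 CPM in DM2 and 137 and 136 CPM in DM1 at day 7, against 169.6 and 169.8 CPM at day 0. Hadhb rose 1.41-fold over day 0 in DM3 at day 7, while Hadha was not called there.

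Echs1, the short-chain hydratase, was highest in DM2 at day 2 (97.8 CPM) and lowest in DM1 at day 2 (52.8 CPM). Hadh, the next dehydrogenase, had 78.7 and 76.3 CPM in DM3, 79.2 and 80.97 CPM in DM2 and 54.6 and 57.4 CPM in DM1 at day 7, against 53.5 and 51.9 CPM at day 0. Both cocktail media were above DM1 and day 0 at day 7. The last enzyme, the thiolase Acaa2, went the other way, with 43.3 and 42.1 CPM in DM3, 33.7 and 33.4 CPM in DM2 and 63.5 and 58.2 CPM in DM1 at day 7, against 75.1 and 65.2 CPM at day 0. Acaa2 fell 1.64-fold in DM3 and 2.09-fold in DM2 at day 7 (adjusted p 6.96e-05 and 2.99e-06).

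For auxiliary enzymes for unsaturated chains and the electron acceptors, group means spanned from 1.27-fold (Eci1) to 1.72-fold (Etfa). Across the 7 groups, means ran from 19.1 to 24.2 CPM for the isomerase Eci1, from 35.9 to 57.0 CPM for the isomerase Eci2 and from 38.6 to 49.0 CPM for the dienoyl-CoA reductase Decr1. Eci1 was not called against day 0 in any group. The flavoprotein subunits that collect electrons from the dehydrogenases spanned 73.7 to 127 CPM for Etfa and 27.3 to 36.8 CPM for Etfb. Etfdh, which passes these electrons to the ubiquinone pool, spanned 54.2 to 79.2 CPM and rose 1.37-fold over day 0 in DM3 at day 7.

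The thioesterases release free fatty acids from acyl-CoA. Both rose against day 0 in DM2 at day 7, whereas in DM3 at day 2 Acot1 rose and Acot2 fell. Acot2, the mitochondrial form, had 1.46 and 1.37 CPM in DM3, 3.05 and 3.03 CPM in DM2 and 3.72 and 2.81 CPM in DM1 at day 2. By day 7 Acot2 had 6.92 and 8.46 CPM in DM3, 63.2 and 63.1 CPM in DM2 and 8.15 and 9.56 CPM in DM1, against 3.75 and 3.53 CPM at day 0. DM2 at day 7 stood above every other library, and DM3 at day 2 below. Acot2 rose 17.2-fold over day 0 in DM2 at day 7 (log2 4.11 ± 0.16 SE, adjusted p 1.36e-09).

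Acot1, the cytosolic form, had 1.36 and 1.10 CPM in DM3, 1.04 and 0.975 CPM in DM2 and 0.266 and 0.530 CPM in DM1 at day 2. By day 7 Acot1 had 0.266 and 0.447 CPM in DM3, 3.42 and 1.93 CPM in DM2 and 0.185 and 0.162 CPM in DM1, against 0.224 and 0.354 CPM at day 0. It was 9.60-fold over day 0 in DM2 at day 7 (adjusted p 7.77e-05). Acot1 and Acot2 are close paralogs on chromosome 12, so how RSEM divided their reads makes both values uncertain.

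The peroxisomal thiolase Acaa1a rose over day 0 in all 6 groups, by 1.27 to 1.67-fold, and its close paralog Acaa1b makes that value uncertain. Ehhadh, the peroxisomal bifunctional enzyme, and Ppara, the PPAR that drives oxidation in liver, stayed at or below 0.225 and 0.143 CPM in every library. No difference between groups was detectable for them at this depth. Ucp2, a widely expressed mitochondrial carrier, had 20.4 and 18.2 CPM in DM3, 3.76 and 2.72 CPM in DM2 and 19.6 and 17.1 CPM in DM1 at day 7, against 8.90 and 10.3 CPM at day 0. Ucp2 thus rose in both horse serum media and fell 2.95-fold in DM2 (adjusted p 7.64e-06).

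At day 2, the largest number of these genes rose in DM3. There 21 of 32 rose and 3 fell against day 0, where 50.9% of all genes tested were called, 25.5% higher and 25.4% lower. The median log2 fold change of the 32 genes was 0.42, against -0.03 over all genes. Acsl3 (5.62-fold), Acot1 (4.42-fold), Cpt1a (4.13-fold), Acadm (2.26-fold), Acsl4 (2.24-fold) and Mlycd (1.80-fold) led the rises. Acot2 (2.60-fold), Cpt1b (2.25-fold) and Acsl5 (1.80-fold) were the 3 that fell, and adjusted p of these 9 genes ran from 1.57e-09 to 0.00367. Of these calls, 17 of the 21 higher and 3 of the 3 lower held when each library was left out in turn.

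DM2 at day 2 had 15 higher and 4 lower, where 49.7% of all genes were called, 23.5% higher and 26.2% lower, and its median was 0.30. Its leaders upward were Acot1 (3.65-fold), Acsl3 (3.04-fold), Acadm (2.87-fold), Cpt1a (2.45-fold), Acsl4 (2.01-fold) and Acaa1a (1.67-fold). Acsl6 (5.25-fold), Cpt1b (2.54-fold), Acsl5 (1.83-fold) and Crat (1.26-fold) were lower, with adjusted p of the 10 from 5.47e-08 to 0.0139. Without DM2 day 2 replicate 1, Acsl6 was 9.85-fold lower, and its fall is smaller without replicate 2. The call of Acot1 was lost without day 0 replicate 1 (adjusted p 0.0578), and that of Crat without day 0 replicate 1 (0.101) or DM2 day 2 replicate 2 (0.0699).

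DM1 at day 2 had 8 higher and 2 lower, where 29.7% of all genes were called, 15.2% higher and 14.6% lower, and a median of 0.14. Acsl3 (2.47-fold), Ucp2 (2.18-fold), Cpt1a (1.77-fold) and the reductase Decr1 (1.26-fold) were the calls that held without each library in turn. Upward, Acsl6 (2.05-fold, adjusted p up to 0.246) and Acsl4 (1.28-fold, up to 0.0993) were not called without day 0 replicate 1 or either DM1 library. Acaa1a (1.31-fold, up to 0.181) was not called without day 0 replicate 2 or DM1 day 2 replicate 1. Downward, Cpt1b (2.03-fold, up to 0.108) was not called without any of the 4 libraries, and Acsl5 (1.28-fold, up to 0.0663) without replicate 1 of either group. Of the 10 calls, 5 were left without day 0 replicate 1, 4 without DM1 day 2 replicate 1 and 6 without DM1 day 2 replicate 2. Fewer were left without the 3 libraries of low pseudogene share, and calls over all genes fell in each of these fits as well.

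At day 7, DM3 again had 21 higher and 3 lower against day 0, where 59.0% of all genes were called, 28.9% higher and 30.1% lower. The median of the 32 genes was 0.52, against 0.03 over all genes. After Ucp3, Fabp3 and Acsl6, the largest rises were those of Acsl3 (5.57-fold), Acsl4 (2.74-fold) and Mlycd (2.43-fold), and the 3 falls were those of Acsl5 (6.04-fold), Cpt1b (4.53-fold) and Acaa2 (1.64-fold). The highest adjusted p among the 9 was 0.000912. Of the rises 19 of 21, and of the falls 3 of 3, held without each library in turn. The leading folds of Ucp3 and Fabp3 without a day 0 library are given with their levels above.

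DM2 at day 7 had 10 higher and 7 lower, where 55.4% of all genes were called, 24.5% higher and 30.9% lower, and a median of -0.01. Besides Acot2 (17.2-fold), Acot1 (9.60-fold) and Fabp3, Acsl4 (2.06-fold), Acsl1 (1.92-fold) and Mlycd (1.81-fold) led upward. Downward they were Ucp2 (2.95-fold), Cpt1b (2.20-fold), Acaa2 (2.09-fold), Acsl5 (1.87-fold), Crat (1.61-fold) and Cpt2 (1.46-fold), with adjusted p from 1.93e-06 to 0.00378. Scaling to library totals in place of TMM factors gave 7 higher and 15 lower. That scaling moved the median of all genes to -0.26 here and to -0.18 for DM3 at day 7 against day 0.

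DM1 at day 7 had 10 higher and 5 lower, where 53.5% of all genes were called, 27.7% higher and 25.8% lower, and a median of 0.08 against 0.06 over all genes. Acsl3 (3.98-fold), Acot2 (2.42-fold), Cpt1a (2.17-fold), Ucp2 (1.92-fold), Acaa1a (1.64-fold) and Mlycd (1.60-fold) led upward, with adjusted p from 3.96e-09 to 0.00293. Cpt1b (2.15-fold), Acsl5 (1.96-fold), Cpt2 (1.29-fold), Hadhb (1.27-fold) and Hadha (1.24-fold) were lower, with adjusted p from 1.28e-06 to 0.00868. The call of Hadhb was lost without day 0 replicate 1 (adjusted p 0.103) or DM1 day 7 replicate 1 (0.0621).

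**Figure D3:**
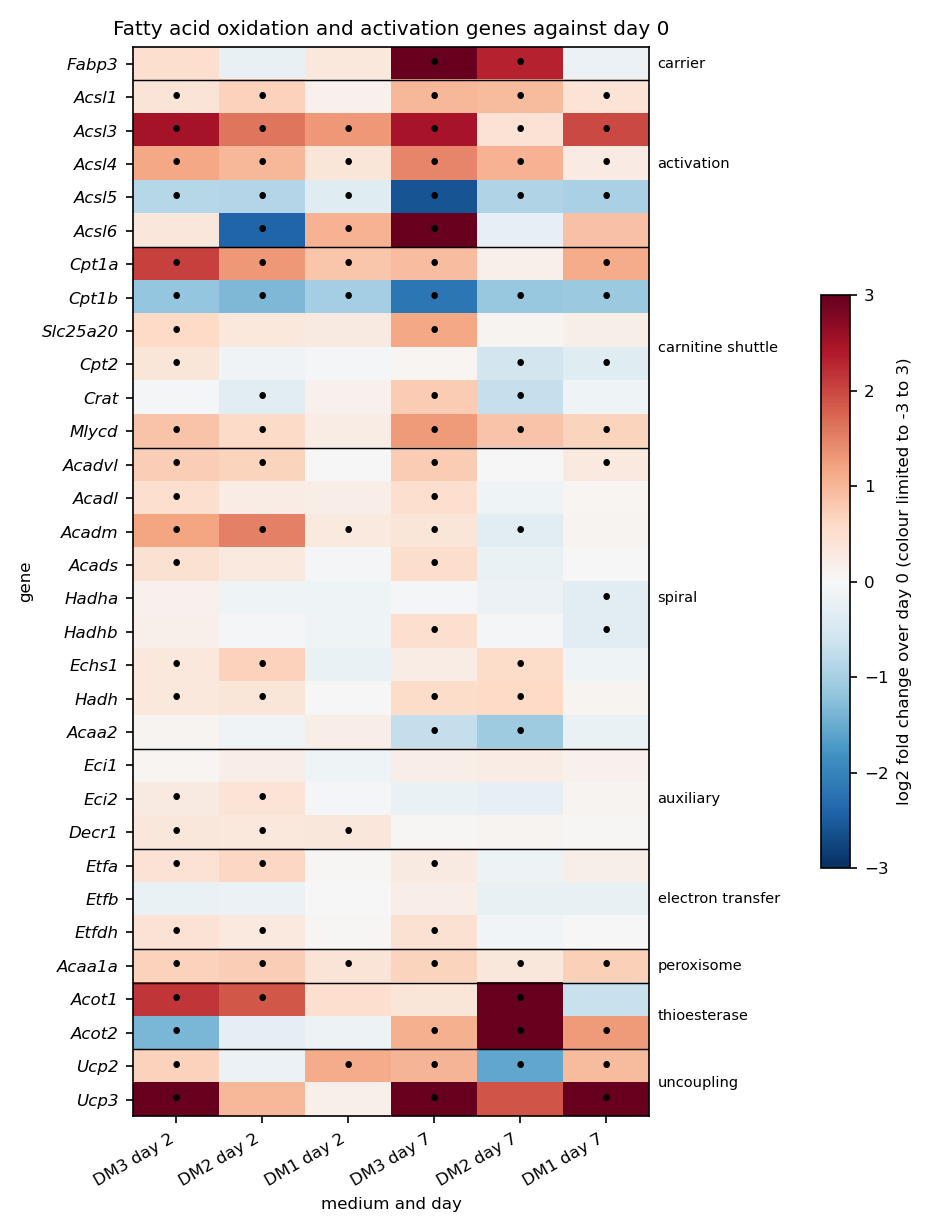
Log2 fold change over day 0 of the 32 tested genes (rows, grouped by role) in each medium and day (columns); red is higher and blue lower than day 0, colours are limited to -3 to 3, and a dot marks an adjusted p under 0.05. Acsl3 and Acsl4 are red and Acsl5 and Cpt1b blue in all 6 columns, and the spiral enzymes are mostly red in the DM3 columns.

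**Figure D4:**
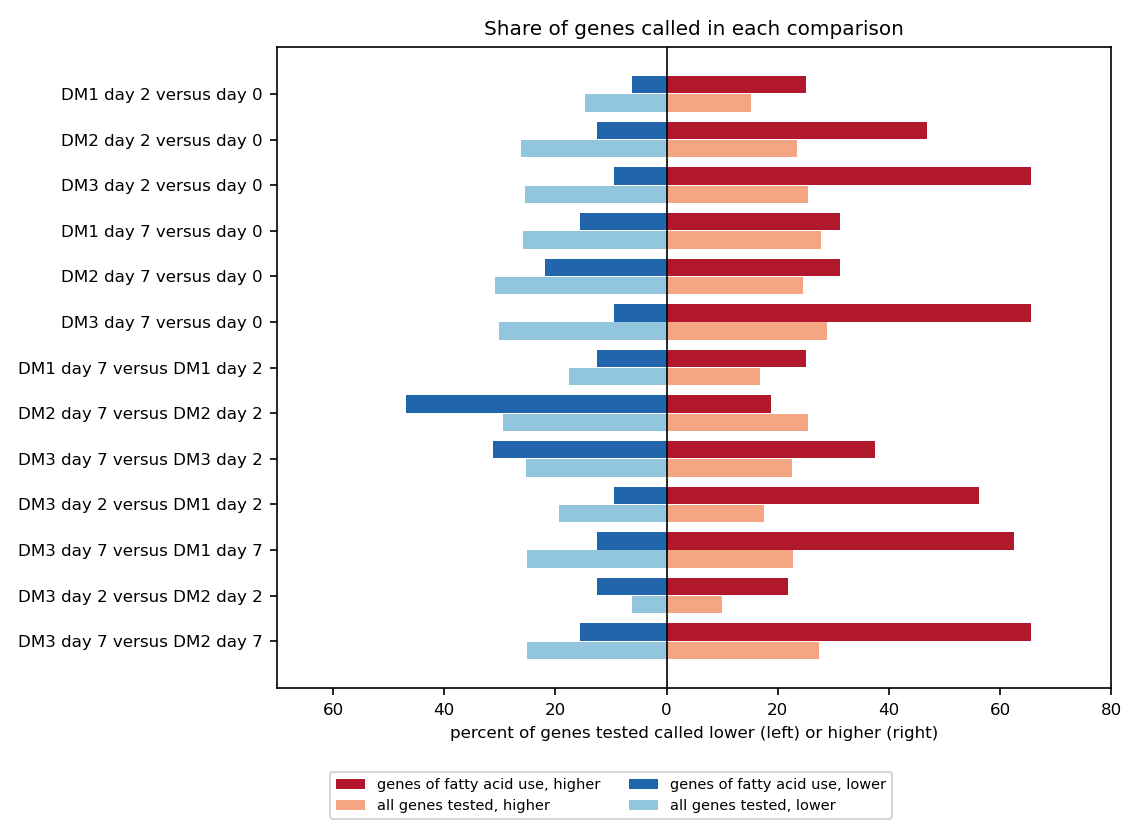
Percent of the 32 genes (dark bars) and of all 15973 genes tested (light bars) called higher (right of 0) or lower (left of 0) in each of 13 comparisons. The share higher is 65.6% for DM3 against day 0 on both days, against 28.9% (day 7) and 25.5% (day 2) of all genes.

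The numbers of genes that rose and fell between day 2 and day 7 differed by medium. In DM2, 6 rose and 15 fell at day 7 relative to day 2, where 54.8% of all genes were called, 25.4% higher and 29.4% lower. The median of the 32 genes was -0.18. Library totals gave 3 and 20, with a median of -0.27 over all genes. Acadm (3.62-fold), Ucp2 (2.63-fold), Acsl3 (2.25-fold), Cpt1a (2.21-fold), Acaa2 (1.93-fold) and Etfa (1.72-fold) led the falls, with adjusted p from 2.66e-08 to 2.46e-05. Acot2 (20.8-fold) and Acsl6 (4.45-fold) were the rises that held without each library. Acsl6 was 8.12-fold higher without DM2 day 2 replicate 1, and its rise is smaller without DM2 day 2 replicate 2. Fabp3 (5.76-fold), Acot1 (2.63-fold), Acsl1 (1.18-fold) and Hadh (1.18-fold) were called higher, with adjusted p up to 0.2, 0.152, 0.286 and 0.155 without 1 library. Calls were lost for Fabp3 without any of the 4 libraries, and for Acot1 without DM2 day 7 replicate 1 or either DM2 day 2 library. For Acsl1 they were lost without replicate 1 of either day, and for Hadh without either DM2 day 7 library or DM2 day 2 replicate 2. Fabp3 was 8.88-fold higher without DM2 day 2 replicate 2, and its rise is smaller without DM2 day 2 replicate 1.

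In DM3, 12 rose and 10 fell between the same days, where 47.9% of all genes were called, 22.6% higher and 25.3% lower, with a median of 0.03 in the set and 0.02 over all genes. Library totals gave 6 and 13. Fabp3 (24.6-fold), Acsl6 (9.40-fold), Ucp3 (8.49-fold), Acot2 (5.46-fold), Crat (1.79-fold) and Acsl1 (1.5-fold) led the rises, with adjusted p from 2.19e-07 to 0.00213. Acsl5 (3.36-fold), Cpt1a (2.16-fold), Acadm (1.75-fold) and Acaa2 (1.74-fold) fell. The falls of Acot1 (3.46-fold) and Cpt1b (2.01-fold) were not called without DM3 day 7 replicate 1 (Acot1, adjusted p 0.0745), or without DM3 day 2 replicate 2 (0.0594) or DM3 day 7 replicate 2 (0.121) for Cpt1b. Without the 3 libraries of low pseudogene share, 14 of the set were called in place of 22.

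In DM1, 8 rose and 4 fell, where 34.3% of all genes were called, 16.8% higher and 17.5% lower, with a median of -0.09. Library totals gave 6 and 6, and RLE factors 5 and 5, and DESeq2 5 and 6. Acot2 (2.71-fold), Acsl3 (1.61-fold) and Acsl5 (1.53-fold lower) held without each library. Mlycd (1.38-fold), Acaa1a (1.26-fold), Acadvl (1.23-fold) and Cpt1a (1.23-fold) upward, and Acaa2 (1.33-fold), Cpt2 (1.24-fold) and Decr1 (1.24-fold) downward, were lost without 1 library (adjusted p up to 0.285). That held for any of the 4 libraries for Acaa1a and Cpt1a, and for all but DM1 day 7 replicate 2 for Mlycd and Acadvl. Cpt2 was lost without either DM1 day 2 library or DM1 day 7 replicate 2, Acaa2 without DM1 day 2 replicate 1 or DM1 day 7 replicate 2, and Decr1 without replicate 2 of either day. Calls numbered 4 and 5 without DM1 day 2 replicate 1 or 2, and 7 without either DM1 day 7 library.

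The effect of adding the cocktail to horse serum was read from DM3 against DM1. At day 2, 18 genes were higher in DM3 and 3 lower, where 37.0% of all genes were called, 17.6% higher and 19.4% lower. The median of the set was 0.30, against -0.02 over all genes. Of the 9 spiral enzymes 8 were higher in DM3, and Acaa2 was not called. Of these 8, Acadl, Hadh, Hadha and Hadhb lost their calls without DM1 day 2 replicate 1, among others. Cpt1a (2.34-fold), Acsl3 (2.28-fold), Acadm (1.86-fold), Acsl4 (1.75-fold) and Acadvl (1.66-fold) were higher, with adjusted p from 8.54e-07 to 0.000171. Acot2 (2.32-fold) and Acsl5 (1.40-fold) were lower.

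Ucp3 in DM3 at day 2, at 34 counts against 1 in DM1, had a ratio of 33.9 (95% counting interval 5.69 to 1378), or 17.9 without DM1 day 2 replicate 1 and at least 5.33 without replicate 2. Acot1 was 3.13-fold higher in DM3, or 4.83-fold without DM1 day 2 replicate 2, and was not called without replicate 1 (2.34-fold, adjusted p 0.121). The 1.35-fold lower level of Ucp2 was not called without DM1 day 2 replicate 2 (adjusted p 0.336) or DM3 day 2 replicate 2 (0.197). Without the 3 libraries of low pseudogene share, 11 genes were called in place of 21, 9 higher and 2 lower.

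At day 7, 20 genes were higher in DM3 than in DM1 and 4 lower, where 47.7% of all genes were called, 22.7% higher and 25.1% lower. The median was 0.43 in the set and 0 over all genes. Library totals moved the median of all genes to -0.23 and gave 12 higher and 8 lower. Of the spiral enzymes 8 of 9 were higher in DM3, and Acaa2 was 1.43-fold lower. Of these 8, Acadm and Hadha lost their calls without DM1 day 7 replicate 2 or DM3 day 7 replicate 1, and Echs1 without replicate 1 of either medium. Acsl6 (6.52-fold), Acsl4 (2.31-fold), Slc25a20 (1.97-fold) and Crat (1.87-fold) were higher, with adjusted p from 9.79e-07 to 0.000178.

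Fabp3 was 39.3-fold higher in DM3 than in DM1 at day 7 (adjusted p 0.00127), with 18.9-fold without DM1 day 7 replicate 1. Without DM1 day 7 replicate 2, the DM1 library left had 0 counts, and the difference was at least 119-fold against the floor. Ucp3 was 12.2-fold higher, or 27.0-fold and 8.03-fold without DM1 day 7 replicate 1 or 2. Acsl5 was 3.08-fold lower in DM3 (adjusted p 4.04e-08). Cpt1b (2.11-fold) and Eci2 (1.23-fold) were also called lower. Cpt1b lost its call without DM1 day 7 replicate 2 (adjusted p 0.0581) or DM3 day 7 replicate 2 (0.0934), and Eci2 without any of the 4 libraries (up to 0.174).

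The difference between DM3 and DM1 itself differed between the days for 13 of the 32 genes, with DM3 higher relative to DM1 at day 7 than at day 2 for 8 and lower for 5, where 34.9% of all genes were called, 16.3% and 18.7%. Library totals gave 5 and 10. Cpt1a was not called between DM3 and DM1 at day 7, against a 2.34-fold excess in DM3 at day 2, a difference of differences of -1.40 ± 0.14 (log2, SE; adjusted p 2.04e-05). Acsl6 moved by 3.40 ± 0.48 and Crat by 1.11 ± 0.14 in the other direction.

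**Figure D5:**
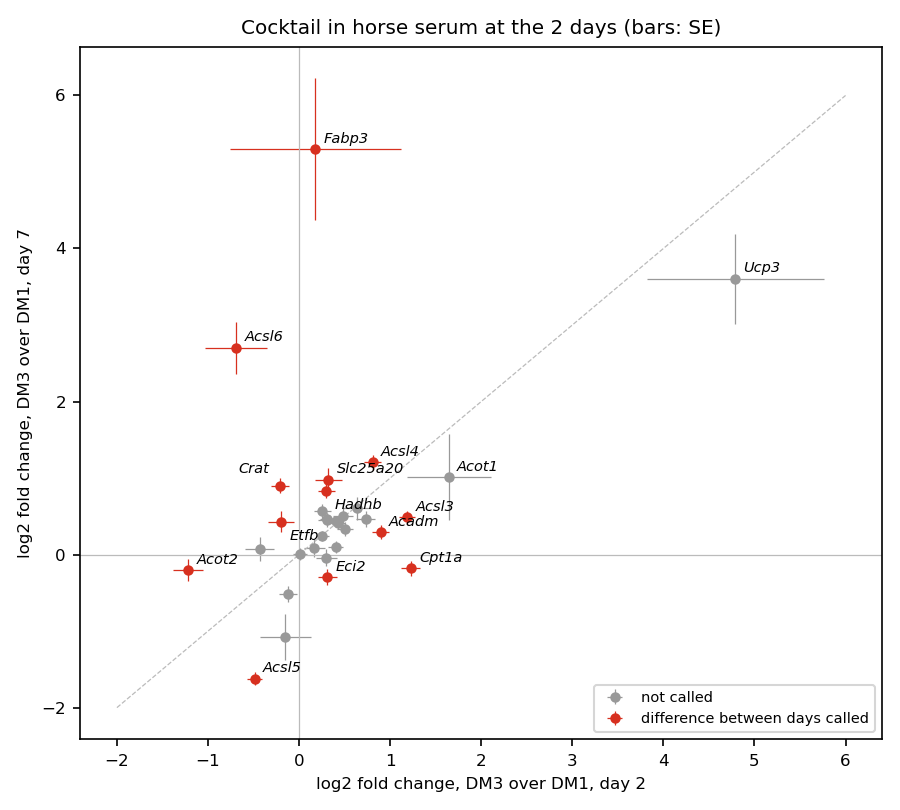
Log2 fold change of DM3 over DM1 at day 2 (horizontal) and day 7 (vertical) for the 32 genes, with bars for SE and a dashed line of equality; red points had a called difference between the days. At day 7 Fabp3 and Acsl6 lie at 5.29 and 2.70, against 0.18 and -0.69 at day 2, while Cpt1a lies at -0.18 at day 7 and 1.22 at day 2.

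DM3 against DM2 exchanges 10% FCS for 2% HS with the cocktail kept, so that kind and amount of serum change together. At day 2, 7 genes were higher in DM3 and 4 lower, where 16.3% of all genes were called, 9.98% higher and 6.31% lower, and the median was 0.17 against -0.02 over all genes. Acsl6 (6.64-fold), Acsl3 (1.85-fold), Ucp2 (1.81-fold), Cpt1a (1.69-fold) and Cpt2 (1.39-fold) were higher and Acot2 (2.15-fold) lower, with adjusted p from 2.65e-05 to 0.00405. Acsl6 was 12.1-fold higher without DM2 day 2 replicate 1, and the difference is smaller without DM2 day 2 replicate 2. Hadha (1.19-fold) upward and Echs1 (1.31-fold), Acadm (1.27-fold) and Acsl1 (1.24-fold) downward lost their calls without 1 library (adjusted p up to 0.24). That library was DM3 day 2 replicate 2 or DM2 day 2 replicate 1 for Hadha and Echs1, either of these or DM3 day 2 replicate 1 for Acadm, and any of the 4 for Acsl1. Calls numbered 6 without DM2 day 2 replicate 1, 7 without the 3 libraries of low pseudogene share, and 2 when only these groups were fitted.

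At day 7, 21 genes were higher in DM3 than in DM2 and 5 lower, where 52.7% of all genes were called, 27.5% higher and 25.2% lower. The median was 0.42 against 0.01 over all genes. Ucp3 (70.8-fold), Acsl6 (14.1-fold), Ucp2 (5.94-fold), Acsl3 (4.12-fold) and Crat (2.74-fold) were higher, with adjusted p from 2.87e-09 to 1.85e-05. Acot2 (8.19-fold), Acot1 (7.51-fold) and Acsl5 (3.23-fold) were lower in DM3. All 3 genes of electron transfer and 5 of 6 of the carnitine shuttle were higher, and both thioesterases were lower. Fabp3 was 6.99-fold higher, a call lost without DM3 day 7 replicate 1 (adjusted p 0.0522) or either DM2 day 7 library (0.0882). Cpt1b (2.06-fold) and Echs1 (1.26-fold) were called lower and lost their calls without DM3 day 7 replicate 2 (0.1 and 0.0811) or 1 DM2 day 7 library each (0.0846 and 0.0624).

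The difference between DM3 and DM2 also depended on the day for 14 genes, with DM3 higher relative to DM2 at day 7 than at day 2 for 10 and lower for 4, where 39.8% of all genes were called, 20.0% and 19.8%. Ucp2 moved by 1.72 ± 0.23 (log2, SE), Acadm by 1.05 ± 0.13 and Acot2 by -1.93 ± 0.22. Comparisons with the same day 0 or DM3 libraries share those libraries and are not independent.

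Over the 7 groups, 13 of the 32 genes had their highest mean in DM3 at day 7, 6 in DM3 at day 2, 5 in DM2 at day 2, 4 in DM2 at day 7, 2 in DM1 at day 2, 0 in DM1 at day 7 and 2 at day 0. The lowest mean was in DM2 at day 7 for 10 genes and at day 0 for 10. These counts were not made over all genes tested, so they do not show a trait of this set. Per kilobase of exon, averaged over groups, Acadl (60.4 CPM per kb), Acsl4 (59.8), Acsl3 (55.8) and Acadvl (53.6) ranked highest. Acot1 (0.223), Ucp3 (0.321) and Cpt1b (0.488) ranked lowest of the tested genes. The length used joins all annotated exons of a gene, from 823 bp for Fabp3 to 10483 bp for Acsl1. It can exceed the length of the transcript in use, and the ranks depend on it. The median ratio of the higher to the lower library of a group was 1.04 to 1.13 over these genes.

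Other genes of fatty acid use were read from 5 lists, chosen with earlier results of these data known. Over all genes tested, 28.9% were higher and 30.1% lower in DM3 at day 7 against day 0, 24.5% and 30.9% in DM2 and 27.7% and 25.8% in DM1. Of 14 genes of peroxisomal oxidation, 11 rose and 0 fell in DM3 at day 2 against day 0 (25.5% and 25.4% of all genes), with a median log2 fold change of 0.62. At day 7, 7 rose and 2 fell in DM3 (median 0.42), 9 rose and 2 fell in DM2 (0.49), and 7 rose and 0 fell in DM1 (0.51). DM3 against DM1 at day 7 gave 3 higher and 3 lower (22.7% and 25.1% of all genes), with a median of -0.10. Amacr, which racemizes branched-chain acyl-CoA, had 95.5 ± 2.43 CPM in DM3, 34.9 ± 0.954 CPM in DM2 and 30.2 ± 7.18 CPM in DM1 at day 7, against 17.3 ± 1.51 CPM at day 0 (SD, n = 2 each). The oxidase Acox3 rose 2.34-fold in DM3 at day 7. Of 16 other mitochondrial acyl-CoA enzymes, 11 rose and 3 fell in DM3 at day 7 (median 0.75), 8 and 5 in DM2 (0.23), and 5 and 5 in DM1 (0.11). Acad11 rose 3.05-fold, and Acad9, known for respiratory complex I assembly, fell 1.54-fold.

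Of 10 genes of uptake and carnitine supply, 5 rose and 3 fell in DM3 at day 7 (median 0.27), 6 and 2 in DM2 (0.39), and 5 and 2 in DM1 (0.21). DM3 against DM2 at day 7 gave 3 higher and 6 lower (27.5% and 25.2% of all genes), with a median of -0.38. The fatty acid transporter Cd36 had 26.8 ± 3.52 CPM in DM3, 5.62 ± 0.572 CPM in DM2 and 4.10 ± 0.403 CPM in DM1 at day 7, against 0.0515 ± 0.0235 CPM at day 0. Fabp5, a binding protein of skin and fat, had 2.85 ± 0.153 CPM in DM3 at day 7 against 104 ± 9.79 CPM at day 0. Lipoprotein lipase, Lpl, had 217 ± 17.5 CPM in DM3, 382 ± 46.4 CPM in DM2 and 92.2 ± 5.89 CPM in DM1 at day 7, against 49.0 ± 2.90 CPM at day 0.

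Of 15 regulators, 8 rose and 6 fell in DM3 at day 7 (median 0.50), 6 and 5 in DM2 (-0.19), and 6 and 5 in DM1 (-0.25). Lpin1, a phosphatidate phosphatase and coactivator, rose 3.07-fold, while Nrf1 (2.10-fold) and Tfam (1.37-fold), which serve mitochondrial gene expression, fell. Of 11 PPAR targets outside oxidation, 7 were tested, and 2 rose and 1 fell in DM3 at day 7 (median 0.09), 3 and 2 in DM2 (-0.0082), and 5 and 0 in DM1 (1.03). Pdk4, which restrains pyruvate oxidation, had 70.9 ± 2.68 CPM in DM3, 118 ± 6.30 CPM in DM2 and 23.2 ± 1.12 CPM in DM1 at day 2, against 43.4 ± 2.20 CPM at day 0. Txnip, an inhibitor of thioredoxin and glucose uptake, had 465 ± 0.743 CPM in DM3, 1.30 ± 0.139 CPM in DM2 and 749.5 ± 96.8 CPM in DM1 at day 7, against 65.8 ± 7.93 CPM at day 0. The hormone Fgf21 had 14.04 ± 0.406 CPM in DM3 at day 7 against 0.173 ± 0.0517 CPM at day 0. Txnip and Fgf21 were the 2 tested genes of this list that rose in DM3 at day 7, so Pdk4 was not called higher there.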

How the data were processed

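Poly(A) RNA of C2C12 cells went into stranded libraries that were read from one end, per the labels' protocols. Alignment used STAR 2.5.1b, GRCm38.p5 and Gencode vM12, and counting used RSEM 1.2.31, per the submitters' processing notes. The authors deposited expected counts per gene, estimated counts that need not be whole, with no normalization. Of 49671 genes, 20610 were at 0 throughout, and 0 columns were left unmatched.

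The counts were rounded and tested with edgeR 4.0.16 (R 4.3.3): filterByExpr by group, TMM factors, 1 model of the 7 groups (7 residual degrees of freedom) and robust quasi-likelihood F tests, with Benjamini-Hochberg adjustment over 15973 genes. A gene was called, or said to rise or fall, at adjusted p under 0.05. "Fold" always gives the size of a change. SE is the log2 fold change over the square root of F. Levels are CPM on TMM-scaled libraries. 3 counts equal 0.102 to 0.132 CPM. Coordinates and exon lengths came from Gencode vM21. The exon length of a gene joins all its annotated exons.

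In each comparison, up to 6 called genes in each direction with at least 1 CPM in a group are named by size of change, and genes leading in several comparisons are given by library. The set and the lists were chosen with earlier results of these data known. Alternatives were library totals, RLE factors, DESeq2 1.42.0, no filter, a replicate block, only the groups compared, and left-out libraries.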

Additional observations from a re-analysis of the deposited data

Results flagged for a closer look

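These values are log2 differences of differences: the difference between media at day 7 minus that at day 2, each past adjusted p 0.05 in edgeR's test of the difference itself. Between DM3 and DM1, values were 5.11 for Fabp3, 3.40 for Acsl6, 1.11 for Crat, 1.014 for Acot2, 0.66 for Slc25a20 and 0.63 for Etfb, which stood higher in DM3 relative to DM1 at day 7 than at day 2. They were -1.40 for Cpt1a, -1.13 for Acsl5, -0.70 for Acsl3, -0.60 for Eci2 and -0.60 for Acadm. The value of Fabp3 was not called without DM1 day 2 replicate 2 (4.85, adjusted p 0.0643), and was 4.06 without DM1 day 7 replicate 1. Without DM1 day 7 replicate 2, the DM1 library left at day 7 had 0 counts, so the fitted value has no bound. Slc25a20 and Etfb lost their calls without most single libraries, 5 and 6 of 8.

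Between DM3 and DM2, values were 1.72 for Ucp2, 1.18 for Crat, 1.16 for Acsl3, 1.05 for Acadm, 0.79 for Slc25a20 and 0.69 for Acadvl. They were -3.19 for Acot1, -1.93 for Acot2, -1.72 for Acsl5 and -1.22 for Cpt1b, the last lost without any of 4 of the 8 libraries (adjusted p up to 0.126).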

How the results depend on the processing

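Of the recomputed values of single genes, 4976 kept direction and side of the threshold, 375 lost a call, 84 gained one and 5 changed sign. The 5 changed sign under library totals, which shift all genes in the day 7 cocktail groups: Acsl1 (-0.017), Hadh (-0.022) and Hadhb (-0.23) in DM2 at day 7 against day 2, Etfdh (-0.18) in DM3 at day 7 against day 2, and Decr1 (-0.23) in DM3 against DM1 at day 7. Without the 3 libraries of low pseudogene share, called genes numbered 3 in DM1 at day 2 against day 0, 5 and 14 at day 7 against day 2 in DM1 and DM3, and 11 and 7 in DM3 against DM1 and against DM2 at day 2. Fitting only the groups compared left 2 in DM3 against DM2 at day 2. The cause of these drops was not tested, although fewer samples enter each fit. In DM1 at day 2 against day 0, calls over all genes fell as well without those libraries.

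Leaving out 1 library gave 4 to 7 calls in DM1, 15 to 19 in DM2 and 21 to 24 in DM3 at day 2 against day 0, and 12 to 16, 15 and 22 to 25 at day 7. Day 7 against day 2 gave 4 to 7 in DM1, 14 to 18 in DM2 and 15 to 18 in DM3. DM3 against DM1 gave 15 to 21 at day 2 and 18 to 22 at day 7, and against DM2 6 to 10 and 20 to 22. The differences between days gave 9 to 13 and 12 to 17. A group left with 1 library was assumed to vary like the others. Calls over all genes are not set beside these counts, so lower counts in such fits do not show a trait of this set.

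Same-numbered libraries did not deviate together as a rule. Over 21 pairs of groups r had a median of 0.0050 and ran from -0.63 to 0.52, with 2 over 0.1. At the ends of that range, libraries of different groups did deviate alike, with the same number at 0.52 and the opposite number at -0.63. A replicate block gave 25 calls in DM3 at day 7 against day 0, and took 6 calls and added 4 over all comparisons. Genes under about 1 CPM, with few counts, were the least certain.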
